A study of Mus musculus with 6 samples.

Results

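Nicotinamide nucleotide transhydrogenase (Nnt) and other enzymes that make NADPH were followed in the lungs of mice on 2 diets. The genes were Nnt, Idh1, Idh2, G6pdx, Pgd and Me2, and they were selected on the diet differences in signal seen earlier on these same arrays. Their own differences are therefore only described here. Calls from the fit across the whole array are counted for them, but these are no independent test. All probe sets whose platform annotation names only 1 of the 6 symbols were taken. This gave 5 of the 18193 genes that have such a probe set on the array and 15 of 45101 probe sets, 3 for Nnt, 2 each for Idh1 and Idh2, and 4 each for Pgd and Me2. G6pdx, which encodes glucose-6-phosphate dehydrogenase, had 0 such probe sets and was not analysed here. All mice were wild type per the labels, which name no other treatment. Lung RNA of 3 mice fed a control diet was set against that of 3 fed a high fat diet, with 1 Affymetrix array per mouse. The sources used here do not give strain, age, sex, the make of the diets or how long they were fed. They do not say whether replicate numbers pair the mice, and the mice were not paired in the main fit.

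NADPH is the electron donor for fatty acid and sterol synthesis and for the glutathione and thioredoxin systems that remove peroxides. In the cytosol it comes from the oxidative pentose phosphate pathway (G6pdx and Pgd), from isocitrate dehydrogenase 1 (Idh1) and from malic enzyme. In mitochondria it comes from Nnt, which uses the proton gradient across the inner membrane to move electrons from NADH to NADP+, from isocitrate dehydrogenase 2 (Idh2) and from the folate route. Nnt is also known because the C57BL/6J substrain of mice carries a deletion inside the gene, and where the Nnt probe sets lie relative to it was not examined here. Whole lung holds many cell types, and in such samples more cells of a type and more RNA per cell cannot be told apart.

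Signals are those of MAS5, the Affymetrix algorithm that gives 1 value per probe set and array, and the trimmed mean of every array was 500. A signal therefore has no absolute scale, and levels of different probe sets are not compared. The median signal ran from 143.3 to 150.3 on the control arrays and from 113.4 to 128.7 on those of the high fat group. Over tested probe sets, log2 signals correlated at 0.945 to 0.962 within groups and 0.902 to 0.938 between groups. The 3' over 5' signal of Gapdh, a measure of RNA quality, was 0.743 to 0.795 in control and 0.854 to 0.957 in high fat mice. That of b-Actin was 1.19 to 1.44 in control and 1.5 to 1.55 in high fat mice. Both ratios were higher in the high fat group without overlap, and their part in the diet differences was not tested. Lung markers were present in every mouse, with a summed signal of 10 epithelial markers, Sftpc and Scgb1a1 among them, of 186941 to 301186 in control and 269438 to 299812 in high fat mice. Of these 10 markers, 4 were higher in high fat mice without overlap between groups and 0 were lower, beside 19.7 and 12.1 percent of all genes. Over the whole table, limma called 857 of 12689 genes (6.75 percent) at an adjusted p under 0.05, and 67.4 percent of these were higher on the high fat diet, or 95.4 percent of 3197 with arrays centred on their medians. That centring moved the median log2 difference of all genes from 0.06 to 0.33, so the sign of a small difference can depend on the scaling.

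Nnt gave the largest rise of the listed genes among probe sets that passed the filter on dim signals, which required a mean log2 signal of 6.14, or a signal of 70.3. Its brightest probe set (1416105_at) read 754, 799 and 800 in the control mice and 1740, 1621 and 1707 in the high fat mice. The groups lay far apart, and the spread within each was small. The means were 784 ± 26.5 and 1690 ± 61.8 (SD, n = 3 each), a difference of 1.11 ± 0.04 on the log2 scale (SE) or 2.15-fold. Of the 27022 tested probe sets, 1.44 percent rose by more.

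The second Nnt probe set (1456573_x_at), some probes of which can match other transcripts as its suffix marks, read 638, 539 and 497 in control and 938, 1327 and 1153 in high fat mice. Here too every high fat mouse was above every control mouse, and the difference was 1.02 ± 0.18 (SE), or 2.03-fold. The order of the mice within a group was not shared by both probe sets. High fat mouse 1 was the highest of its group with the first and the lowest with the second. The third Nnt probe set (1432608_at) was dim and below the filter, at 7.2, 44.5 and 55.2 in control and 22.2, 1.8 and 24.1 in high fat mice. Its groups overlapped and it carries no usable fold.

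Idh1, the cytosolic isocitrate dehydrogenase, was higher in high fat mice with 1 of its 2 probe sets. The brighter (1422433_s_at) read 3448, 3263 and 3259 in control and 5655, 4425 and 5088 in high fat mice. The lowest high fat mouse was above the highest control mouse, with a difference of 0.6 ± 0.11 (SE), or 1.51-fold. The dimmer probe set (1419821_s_at) read 1749, 1569 and 1537 in control and 1703, 1721 and 1729 in high fat mice. Control mouse 1 was above all high fat mice there, and the difference was 0.09 ± 0.06 (SE). Both carry the suffix of probe sets that can detect transcripts of more than 1 gene, and they did not give the same picture of Idh1.

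Idh2 is the mitochondrial enzyme of the same reaction. Its brighter probe set (1450048_a_at) read 2659, 2359 and 2826 in control and 4239, 3209 and 3874 in high fat mice. The groups did not overlap, and the difference was 0.52 ± 0.14 (SE), or 1.44-fold. The other Idh2 probe set (1453601_at) read 235, 158 and 120 in control and 98.9, 142 and 217 in high fat mice. Its groups overlapped, and its difference of -0.18 ± 0.43 (SE) changed sign with quantile normalization (0.07) and with median centring (0.09).

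Pgd encodes 6-phosphogluconate dehydrogenase, the second NADPH-producing step of the pentose phosphate pathway. The groups overlapped with all 4 of its probe sets, and the differences were positive with each. The one with the highest mean log2 signal (1436771_x_at) read 2440, 2035 and 2130 in control and 3096, 2279 and 2888 in high fat mice, a difference of 0.32 ± 0.16 (SE). High fat mouse 2 lay inside the control range. The differences of the other Pgd probe sets were 0.18 ± 0.18 (1437380_x_at), 0.1 ± 0.1 (1423706_a_at) and 0.37 ± 0.17 (1438627_x_at, SE each).

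Me2 is the mitochondrial malic enzyme that makes NADH or NADPH from malate, and its 4 probe sets did not move together. The brightest (1426572_at) read 491, 395 and 386 in control and 354, 369 and 423 in high fat mice. The groups overlapped, and the difference of -0.15 ± 0.14 (SE) turned to 0.13 with median centring. A second (1439526_at) was slightly higher without overlap, at 335, 366 and 356 in control and 389, 387 and 390 in high fat mice, a difference of 0.14 ± 0.04 (SE). The dimmest (1458172_at) was lower without overlap, at 164, 97.5 and 205 in control and 81.2, 43.1 and 97.3 in high fat mice, and the gap between the lowest control and the highest high fat mouse was small. Its difference was -1.09 ± 0.48 (SE). The last Me2 probe set (1426573_at) overlapped, with a difference of -0.27 ± 0.45 (SE) that was 0 with median centring.

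**Figure D1:**
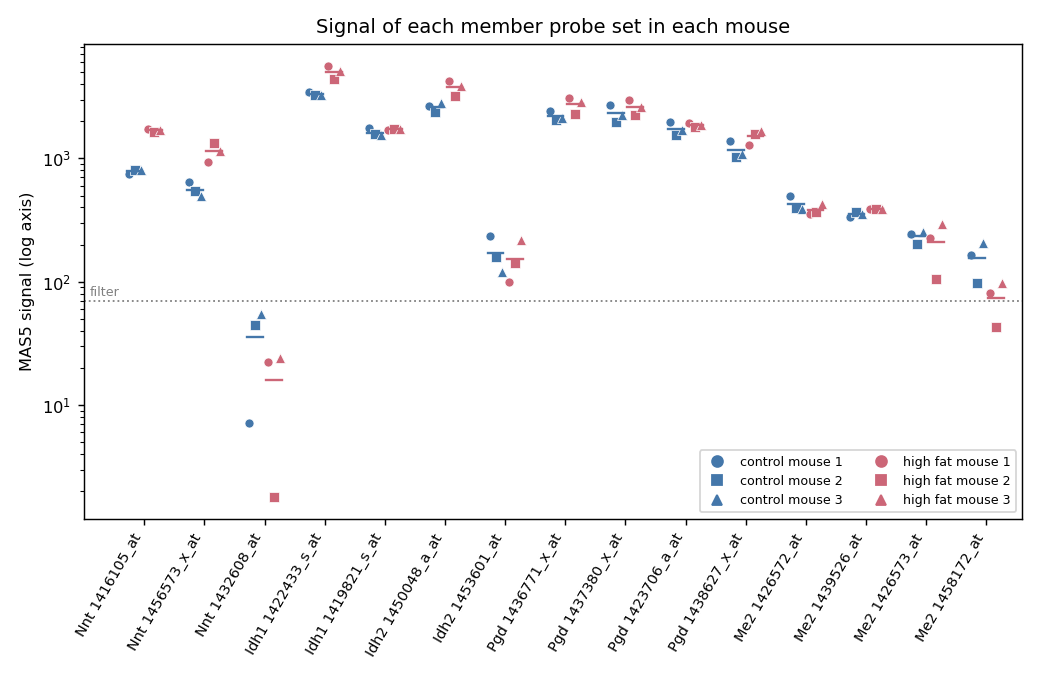
MAS5 signal (log axis) of the 15 probe sets of Nnt, Idh1, Idh2, Pgd and Me2 in each of 3 control mice (blue) and 3 high fat mice (red); short lines are group means and the dotted line is the filter at a signal of 70.3. The high fat mice lie above the control mice with no overlap for Nnt 1416105_at and 1456573_x_at, Idh1 1422433_s_at, Idh2 1450048_a_at and, by little, Me2 1439526_at.

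Of the 15 probe sets, 14 passed the filter. Over all 15, 5 were higher in high fat mice without overlap, 1 was lower and 9 overlapped. Over all tested probe sets, 14.6 percent were higher and 21.7 percent lower without overlap. The fit across all tested probe sets called 4 of the 14, 2 of Nnt and 1 each of Idh1 and Idh2, all higher, beside 12.9 percent of all probe sets called in either direction, 4.63 percent higher and 8.27 percent lower. With 1 probe set per gene, the brightest, the same fit called 2 of the 5 genes, Nnt and Idh1, both higher, beside 6.75 percent of all genes called, 4.56 percent higher and 2.2 percent lower. These counts describe genes that were listed for their differences, and nothing is read from them. With any 1 mouse left out, the log2 difference of the brightest probe set stayed between 1.08 and 1.14 for Nnt, 0.51 and 0.69 for Idh1, 0.44 and 0.64 for Idh2, 0.22 and 0.45 for Pgd, and -0.22 and -0.04 for Me2.

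**Figure D2:**
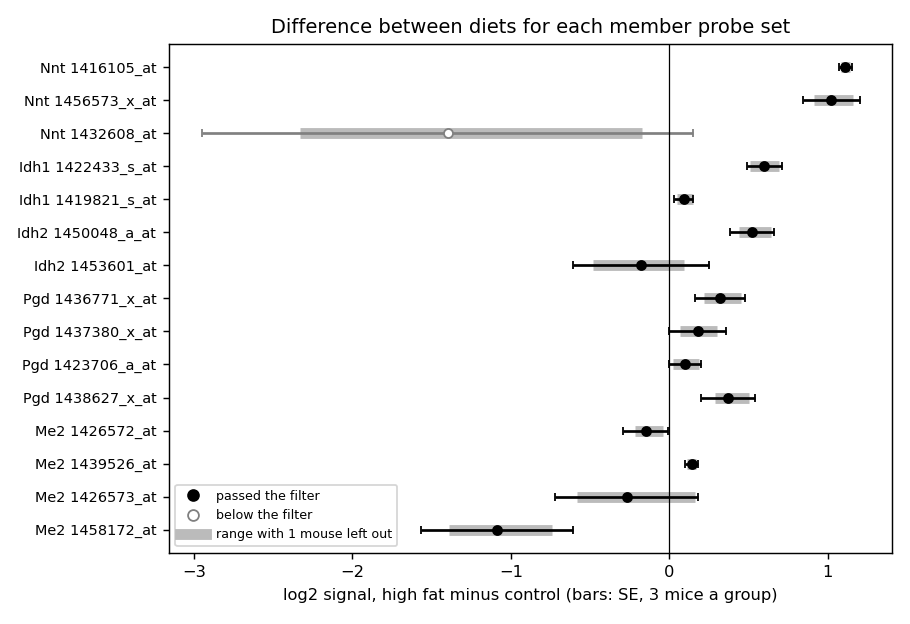
Log2 difference, high fat minus control, of each probe set with its SE over 3 mice a group; grey bars span the values with any 1 mouse left out, and the open symbol marks the probe set below the filter. The Nnt probe sets 1416105_at and 1456573_x_at lie at 1.11 and 1.02, those of Pgd between 0.1 and 0.37, and those of Me2 on both sides of 0.

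The profiles over the 6 mice were also compared through the brightest probe set of each gene, as the root mean square difference of log2 signals centred on each gene. Among the listed genes, Idh1 and Idh2 were closest, at 0.088, and Nnt and Me2 were farthest apart, at 0.647. These distances take in the diet differences for which the genes were listed, so they are no separate result. Nnt was at 0.27 from Idh1 and 0.316 from Idh2. Predicted genes and clone names were left out when the genes most like a listed gene were sought. Of the other tested genes, the 5 most like Nnt began with Tomm7, a subunit of the translocase of the outer mitochondrial membrane (0.064). Next came Clip3, a linker protein of membranes and microtubules (0.079), and Pfdn1, a prefoldin subunit (0.083). Then followed the stearoyl-CoA desaturase Scd1 (0.086) and the ribosomal protein gene Rpl37a (0.089). The log2 differences of these 5 genes ran from 1 to 1.21. Ogdh, a subunit of the 2-oxoglutarate dehydrogenase that follows isocitrate dehydrogenase in the citric acid cycle, was the gene most like Idh2 (0.048). Rab36, Sppl2b, Mast2 and Tmem141 came next, at 0.06 to 0.069. The median to all tested genes was 0.573 from Nnt, 0.369 from Idh1 and 0.358 from Idh2.

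Idh1, Idh2, Pgd and G6pdx had windows in the promoter table of RefSeq (GRCm38.p6), and 1 of each is shown, those of Idh1 and Idh2 because they had the closest profiles, that of Pgd because its groups overlapped, and that of G6pdx to complete the listed genes. Each is the 250 bases before the first listed start, 5′ to 3′, with GC boxes (GGGCGG) and cores of the antioxidant response element (TGACNNNGC) on either strand in capitals.
Idh1 (chr1:65186480-65186729, minus strand): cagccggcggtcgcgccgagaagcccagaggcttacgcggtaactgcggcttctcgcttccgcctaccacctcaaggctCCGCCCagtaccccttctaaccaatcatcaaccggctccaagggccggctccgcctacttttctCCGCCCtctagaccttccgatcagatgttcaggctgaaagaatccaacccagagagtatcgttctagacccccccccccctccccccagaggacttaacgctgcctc
Idh2 (chr7:80115351-80115600, minus strand): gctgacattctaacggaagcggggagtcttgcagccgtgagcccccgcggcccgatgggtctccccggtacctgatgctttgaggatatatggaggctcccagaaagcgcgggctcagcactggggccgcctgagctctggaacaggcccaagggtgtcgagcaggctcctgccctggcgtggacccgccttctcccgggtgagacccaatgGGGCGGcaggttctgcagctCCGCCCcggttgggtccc
Pgd (chr4:149166706-149166955, minus strand): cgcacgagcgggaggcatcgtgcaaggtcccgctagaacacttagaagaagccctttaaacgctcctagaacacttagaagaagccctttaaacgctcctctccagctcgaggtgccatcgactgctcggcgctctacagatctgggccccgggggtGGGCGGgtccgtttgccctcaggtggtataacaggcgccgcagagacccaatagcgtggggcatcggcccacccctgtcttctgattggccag
G6pdx (chrX:74428881-74429130, minus strand): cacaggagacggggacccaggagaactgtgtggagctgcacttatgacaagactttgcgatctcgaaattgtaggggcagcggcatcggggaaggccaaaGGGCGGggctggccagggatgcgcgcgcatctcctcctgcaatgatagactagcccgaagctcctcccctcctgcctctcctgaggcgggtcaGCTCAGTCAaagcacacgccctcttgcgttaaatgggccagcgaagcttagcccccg
The windows of Idh1 and Idh2 hold 2 GC boxes each and those of Pgd and G6pdx 1 each, the binding element of Sp1 family factors, and 32.7 percent of 32851 such windows hold at least 1. These 4 windows are 60.4 to 67.2 percent G or C, beside a median of 52.4 percent for all windows. The share of all windows was not matched for this. The core of the antioxidant response element, through which NRF2 acts on genes of NADPH supply, was found 1 time in the window of G6pdx, the gene with no signal here, and in 0 of the other 3, beside 10.2 percent of all windows. The E-box CACGTG was in 0 of the 4 and in 6.02 percent of all. The second listed starts of Idh1 and Pgd held 1 and 0 GC boxes and neither other motif. The GC box and the core in the G6pdx window do not overlap, and a match is of letters and no measured site.

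Marker genes of other cell types moved with the diet as well. The marker counts below stand beside 19.7 percent of all tested genes that were higher and 12.1 percent that were lower without overlap. All 10 tested adipocyte markers were higher in high fat mice without overlap, Fabp4 and Adipoq among them, and their summed signal was 3386 to 6991 in control and 24586 to 35310 in high fat mice. Adipocytes are rich in NADPH-producing enzymes, and the part of adipocyte RNA in the levels of Nnt, Idh1 and Idh2 was not tested. Within the control group the adipocyte sum was 3386, 3935 and 6991 in mice 1 to 3 while Nnt (1416105_at) read 754, 799 and 800. Within the high fat group the sum was 35310, 24586 and 24934 while the same probe set read 1740, 1621 and 1707. In both groups the mice ran in the same order for the sum and this probe set, with control mice 2 and 3 nearly equal for Nnt. The second Nnt probe set (1456573_x_at) ran in the reverse order in both groups. It read 638, 539 and 497 in control and 938, 1327 and 1153 in high fat mice, so the order depends on the probe set. Of 4 tested brown fat markers, 2 were higher without overlap, Cox8b and Cox7a1, and the sum was 437 to 950 in control and 1272 to 6324 in high fat mice. The 3 other listed markers, Dio2, Elovl3 and Zic1, were below the filter. None of their probe sets was higher without overlap. The defining marker of brown fat, Ucp1, read 2.7, 25.1 and 258 in control and 1199, 236 and 748 in high fat mice, with overlap.

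Of 10 tested cardiac muscle markers, 3 were higher without overlap (Myl7, Myl4 and Ryr2), and the sum was 21261 to 48451 in control and 45050 to 166606 in high fat mice. High fat mouse 2 had a cardiac sum inside the control range, but its Myl7, Myl4 and Ryr2 signals were each above all control mice. The same mouse read 1621 for Nnt, 4425 for Idh1 and 3209 for Idh2, each above all control mice. Within each group Idh2 ran in the order of the cardiac sum, highest in mouse 1 and lowest in mouse 2 of the high fat group, and highest in mouse 3 and lowest in mouse 2 of the control group. In the high fat group this order was also that of the adipocyte sum and of the brightest probe sets of Nnt, Idh1 and Pgd. It is therefore not particular to Idh2 or to the cardiac markers there. The part of cardiac muscle in the levels and the spread of Nnt, Idh1 and Idh2 was not tested. The skeletal muscle sum was 61653 in control mouse 1, 19166 in high fat mouse 1 and 662 to 3484 in the 4 other mice, and without both of these mice the log2 difference was 1.06 for Nnt, 0.54 for Idh1 and 0.45 for Idh2. Without overlap between groups, 4 of 7 B cell markers (Ms4a1 among them), 4 of 9 T and NK cell markers and 5 of 7 neutrophil markers (S100a9 among them) read lower on the high fat diet. The summed B cell signal was 4673 to 6849 in control and 1675 to 3650 in high fat mice, that of T and NK cells 3498 to 4350 and 1884 to 2824, and that of neutrophils 5893 to 16397 and 2386 to 7531. Macrophage markers went both ways, 2 of 10 higher and 5 lower without overlap (sums of 25569 to 28768 and 14861 to 28952), and of 8 endothelial and 3 erythroid markers 2 each were lower without overlap (sums of 41876 to 50536 and 33679 to 44208 for endothelial, 6599 to 10221 and 3026 to 4868 for erythroid markers). The part of these cells in the levels of the listed genes was not tested.

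**Figure D3:**
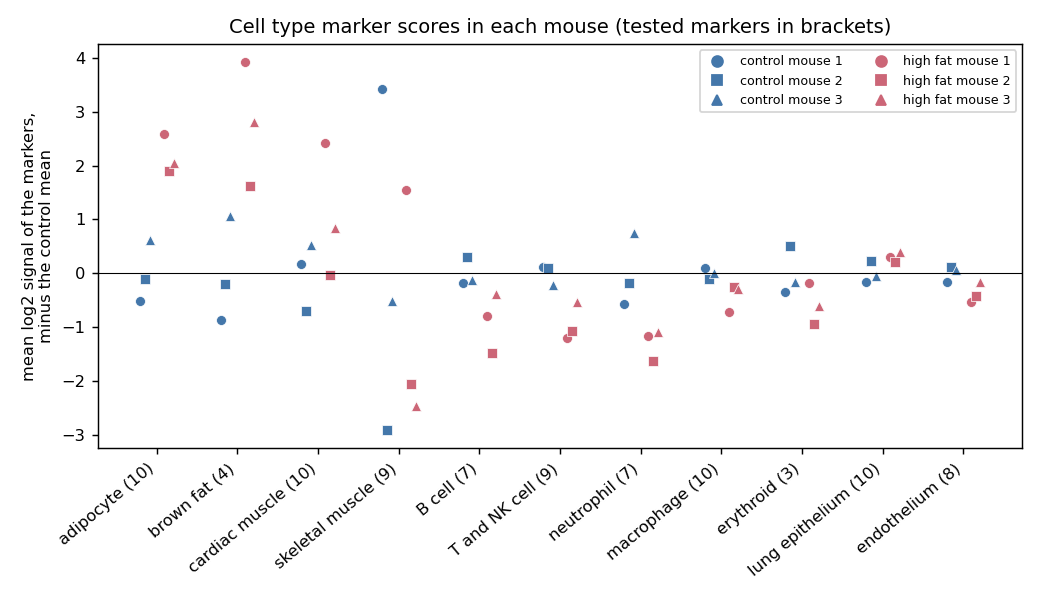
Mean log2 signal of the tested markers of 11 cell types in each mouse, minus the control mean; the number of tested markers is in brackets. High fat mice lie above all control mice for adipocyte and brown fat markers, high fat mouse 1 is highest for cardiac muscle at 2.43, and high fat mouse 2 lies at -0.03 there, inside the control range.

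Of 10 protein-coding genes next to Nnt in the RefSeq order, 5 on each side, 8 were tested. Fgf10, a growth factor of lung branching, was below the filter. Paip1, the nearest tested gene and a partner of the poly(A)-binding protein, went from 693 ± 62.8 to 926 ± 93.8 (SD, n = 3 each) without overlap but was not called (limma adjusted p = 0.104). Hmgcs1, the cholesterol synthesis enzyme, Ccl28, Emb, Mrps30, Parp8 and Tmem267 were not called either. The clone gene 4833420G17Rik, named after its values were seen, was called lower by limma (adjusted p = 0.0245), at 2210 ± 321 in control and 935 ± 395 in high fat mice (SD, n = 3), and lost its call when any mouse but high fat mouse 1 was left out (adjusted p up to 0.0977, without control mouse 2). Wdfy1, a gene whose expression has been reported to differ between C57BL/6J and C57BL/6N mice, read 896, 1073 and 1003 in control and 510, 1449 and 1217 in high fat mice, with overlap. Gabra2, another such gene, was below the filter with all of its probe sets, and Entpd4 was not analysed here because its probe sets name several genes.

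Among other sources of NADPH, the cytosolic malic enzyme Me1 and H6pd, the hexose-6-phosphate dehydrogenase of the endoplasmic reticulum, rose. Of the 13 genes on this list, all tested, 2 rose, 0 fell and 11 were not called, with a median log2 difference of 0.11 against 0.06 for all genes. Me1 read 1659, 839 and 1078 in control and 2612, 2988 and 3024 in high fat mice. The groups were well separated, and the rise was 2.51-fold (1.32 ± 0.29 on the log2 scale, SE, limma adjusted p = 0.0146). A dimmer Me1 probe set was not called (0.46 ± 0.41, SE). H6pd read 2884, 2968 and 2926 in control and 3544, 4791 and 4298 in high fat mice, a rise of 1.43-fold that only just passed the test (limma adjusted p = 0.0498). Mthfd1, Mthfd2l and Glud1 read lower without overlap and were not called, with Mthfd1 of the cytosolic folate route at 0.735 times the control level (limma adjusted p = 0.0616). All 3 Mthfd1 probe sets were lower without overlap, 2 of them called over probe sets (limma adjusted p = 0.0445 and 0.0397). With quantile normalization Mthfd1 was called lower (adjusted p = 0.035) and H6pd was not called (0.0586), and with median centring Mthfd1 was at -0.17 on the log2 scale (0.339). The NAD kinases Nadk and Nadk2, which supply NADP+, were at 1.08 and 0.996 times the control level, and the mitochondrial malic enzyme Me3 overlapped. Me1 lost its call without control mouse 3 (adjusted p = 0.0597), and H6pd was called only when high fat mouse 1 was the one left out (up to 0.148 otherwise, without control mouse 3).

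The non-oxidative branch of the pentose phosphate pathway, which returns pentoses to glycolysis, gave 1 call among 7 tested genes of 9. Transketolase (Tkt) read 5782, 6470 and 6266 in control and 11132, 12561 and 8114 in high fat mice. All high fat mice were higher, by 1.69-fold on average (limma adjusted p = 0.0329). A second Tkt probe set gave 0.32 ± 0.14 (SE) and was not called, and the mean of all Tkt probe sets, which takes in another that was below the filter, gave 0.04. Rpe, the epimerase, was lower at 0.762 times with overlap, and Taldo1, the transaldolase, was at 1.18 times with overlap, neither called. The median of the list was 0.24. Tkt stayed called only when high fat mouse 3 was the one left out (adjusted p up to 0.106 otherwise, without control mouse 3).

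Of the glutathione and thioredoxin systems, which spend NADPH, 3 of 18 tested genes rose, 0 fell and 15 were not called (22 listed, median 0.25). Cytosolic thioredoxin (Txn1) read 9064, 9382 and 9442 in control and 13654, 15948 and 13246 in high fat mice, a 1.53-fold rise (limma adjusted p = 0.0235). The extracellular glutathione peroxidase Gpx3 rose 1.61-fold and the mitochondrial glutaredoxin Glrx2 rose 1.51-fold (limma adjusted p = 0.0242 and 0.0332). The reductases that take electrons from NADPH itself were not called over genes. Glutathione reductase (Gsr) was at 0.891 times the control level with its brightest probe set, but a second read 994.4, 1028 and 1151 in control and 717.9, 652.4 and 663.4 in high fat mice and was called lower over probe sets (0.642 times, limma adjusted p = 0.0165), so the call for Gsr depends on the probe set. The thioredoxin reductases Txnrd1, Txnrd2 and Txnrd3 were at 1.03, 1.22 and 1.02 times. The mitochondrial peroxidase Prdx3 was at 0.886 times with overlap. With any 1 control mouse left out, 0 of these genes were called. With 1 high fat mouse left out, Txn1 was not called without mouse 2, Gpx3 not without mouse 2 or 3, and Glrx2 in no such fit. The adjusted p of Glrx2 was at most 0.12, without control mouse 3.

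Of 13 tested enzymes and oxidases that use NADPH for synthesis or to make superoxide, of 20 listed, limma called 0, with 2 at an unadjusted p under 0.05, against 25.5 percent of all genes at that level. These were the carbonyl reductase Cbr1 (1.28-fold, limma adjusted p = 0.125) and the fatty acid synthase Fasn, which read 4383, 3567 and 4940 in control and 6000, 5305 and 5127 in high fat mice (adjusted p = 0.156). Neither overlapped between groups. Cybb, the catalytic subunit of the phagocyte NADPH oxidase, was at 0.698 times the control level without overlap and was not called over genes. Its 2 other probe sets were called lower over probe sets, at 0.508 and 0.481 times (limma adjusted p = 0.0192 and 0.007), and when a gene's probe sets were averaged Cybb was the 1 gene of this list called, also lower (adjusted p = 0.0363). The median of the list was -0.06.

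Of 22 tested genes of the citric acid cycle and its shuttles, 23 listed, 3 rose, 0 fell and 19 were not called (median 0.28). The succinyltransferase Dlst read 1476, 1357 and 1670 in control and 2903, 2463 and 2432 in high fat mice, a 1.73-fold rise (limma adjusted p = 0.0126), but 3 dimmer tested probe sets of Dlst had negative differences (-0.61, -0.22 and -0.83, none called), so its direction depends on the probe set. The dicarboxylate carrier Slc25a10 rose 1.74-fold and Ogdh 1.49-fold (limma adjusted p = 0.0186 and 0.0477). The subunits of the NAD-linked isocitrate dehydrogenase, which make NADH and no NADPH, overlapped between groups, with Idh3a at 1.15, Idh3b at 1.12 and Idh3g at 1.06 times the control level. The difference between these and Idh1 or Idh2 was not tested. Dlst lost its call without control mouse 2 (adjusted p = 0.0565), Slc25a10 without control mouse 1 or 2 (0.0598 and 0.0771), and Ogdh in every such fit but the one without high fat mouse 2 (up to 0.146, without control mouse 2). Over these 5 lists, 9 of 73 tested genes were called through their brightest probe sets and all were higher, beside 6.75 percent of all genes called and 4.56 percent called higher. Without overlap, 19 of the 73 were higher and 4 lower, beside 19.7 and 12.1 percent of all genes. Over the 139 tested probe sets of these genes, 11 were called higher and 6 lower, beside 4.63 and 8.27 percent of all probe sets, and the 6 belong to Cybb, Gsr, Mthfd1 and Sdha, so the single direction of the calls depends on the choice of probe set.

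**Figure D4:**
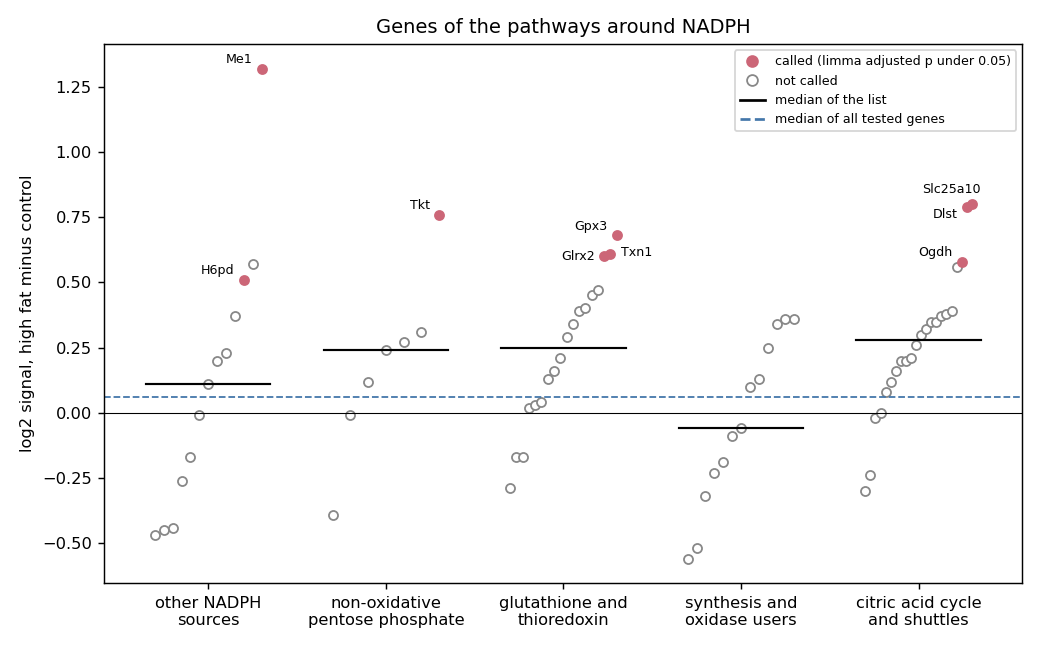
Log2 difference, high fat minus control, of the tested genes of 5 lists around NADPH, ordered within each list; filled symbols are called by limma at an adjusted p under 0.05, each gene is shown by its brightest probe set, black lines are list medians and the dashed line is the median of all tested genes. The 9 called genes are all above 0, from H6pd at 0.51 to Me1 at 1.32.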

How the data were processed

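RNA of 6 mouse lungs, 3 on a control and 3 on a high fat diet, was measured with 1 array per mouse. Per the submitters' processing notes the authors used MAS5, and what they deposited is 1 linear intensity per probe set and array, with a trimmed mean of 500 on every array (2 percent cut at each end). The sources used here give no version, settings or genome build. MAS5 subtracts mismatch signal, so dim probe sets are noisy. The number of arrays limits the precision. Each sample has its own number in the labels, taken here as 1 mouse; where samples were not separate animals, p-values measure only the spread between these samples, which may be technical.

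Symbols came from the platform annotation: 34958 probe sets carried 1 symbol, 932 several and 9211 none, and a lookup by Entrez identifier in the RefSeq table of GRCm38.p6 found 34754 and changed 0. A floor of 1 was set before taking log2. Probe sets at or above the 40th percentile of mean log2 signal, without 64 controls, were tested (27022, for 12689 genes). The test was limma 3.58.1 in R 4.3.3, two-sided, by lmFit and eBayes (trend = TRUE; 4 residual degrees of freedom), adjusted by Benjamini-Hochberg over all probe sets or over the brightest probe set of each gene. Fold changes are 2 to the log2 difference. In simulated data of 12689 genes, 54 percent of 100 genes changed by 1 and 87 percent of 100 changed by 2 on the log2 scale were recovered. The simulated noise was independent and no array was shifted as a whole, so recovery in the real arrays may differ.

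The members, gene lists, markers and alternatives were chosen with earlier results of these data known. Named are all members, called genes of each list or otherwise the 2 with the smallest p, the 5 neighbours of Nnt on each side, the genes most like Nnt, and the 2 brightest markers of a list where markers are named. Other genes of a list, other markers (Cox7a1, Ucp1, Dio2, Elovl3, Zic1, Myl4 and Ryr2) and the genes most like Idh2 were chosen after their values were seen. Motif matches were counted in the 250 bases before each start. Of the neighbours of Nnt, 1 is not reported here.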

Additional observations from a re-analysis of the deposited data

How the results depend on the processing

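The brightest probe sets of Nnt, Idh1, Idh2 and Pgd kept their sign in each alternative run. With median centring, which raises all genes, they were at 1.38, 0.87, 0.8 and 0.59 and Me2 at 0.13, and without the first mouse of each group Nnt was at 1.06. Genes called numbered 3197 with median centring, 136 without the trend in eBayes, 472 when a gene's probe sets were averaged, 343 without both first mice and 170 to 566 with any 1 mouse left out, against 857, and 54.4 percent were higher with that mean. Probe sets called numbered 5445 with median centring (80.1 percent higher, against 35.9 percent of 3486), 1343 without both first mice and 724 to 3298 with 1 mouse left out. Without a trend, 0 genes were called in each of the lists. Median centring called 4 genes of the non-oxidative branch, 9 of the glutathione and thioredoxin systems, 5 of the NADPH users and 11 of the citric acid cycle. With the mean of all probe sets, 0 were called of the other NADPH sources, 0 of the non-oxidative branch, 1 of the glutathione and thioredoxin systems, 1 of the NADPH users (Cybb, lower) and 0 of the citric acid cycle, and Dlst turned to -0.21. Without both first mice, 1 other NADPH source and 0 of each other list were called, and with no filter 1 other NADPH source. With 1 mouse left out, calls were 0 to 2 for other NADPH sources, 0 to 1 for the non-oxidative branch, 0 to 2 for glutathione and thioredoxin, 0 to 1 for NADPH users and 0 to 3 for the citric acid cycle. The cause of these changes was not tested. With the replicate number as a block, 737 genes and 1 other NADPH source (Me1) were called. Deviations of mice with the same number correlated at 0.17, 0.11 and -0.04, and those of mice with different numbers at -0.21 to 0.13. With 3 mice a group the deviations depend on one another, so these values cannot decide whether the numbers pair the mice. No group had more than 3 arrays, and dim probe sets such as Nnt 1432608_at carry no reliable difference.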
